A study of Homo sapiens with 18 samples.

Results

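The BCL2 family controls the mitochondrial step of apoptosis, and 10 of its genes were followed through RSL3 treatment in MM1R and MM1S myeloma cells. They were chosen by name as the BH3-only genes BBC3 (PUMA), PMAIP1 (NOXA), BCL2L11 (BIM), BMF, BIK and BID, the survival genes MCL1, BCL2 and BCL2L1, and the effector BAX, which makes 10 of the 43735 genes in the count table. All 10 passed the filter on low counts that left 14281 genes for testing. MM1R and MM1S are human multiple myeloma lines of one origin, resistant and sensitive to glucocorticoids respectively, and each entered the study in 3 conditions. These were untreated cells, cells exposed to RSL3 (5 µM, 3 h), and cells that received Fer-1 (2 µM) for 2 h ahead of the same RSL3 exposure. RSL3 inhibits GPX4, the peroxidase that clears lipid peroxides, and Fer-1 (ferrostatin-1) is a radical-trapping inhibitor of ferroptosis. Each of the 6 groups holds 3 libraries, one per passage of the line (passages 4, 6 and 7 of MM1R and passages 16, 22 and 23 of MM1S), so the p-values measure the spread between passages of 2 cell lines. The study's compounds were dissolved in DMSO, the controls are labelled untreated, and there was no group given Fer-1 alone.

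As background, BH3-only proteins bind the groove of the survival proteins MCL1, BCL2 and BCL-XL (encoded by BCL2L1) and so set BAX and BAK1 free to permeabilise the outer mitochondrial membrane. BIM, PUMA and truncated BID bind all of the main survival proteins, whereas NOXA mainly binds MCL1. Myeloma cells are known to lean on MCL1 for survival. Much of the family is regulated after transcription (BID by caspase cleavage, MCL1 by rapid protein turnover, BIM and MCL1 also by splicing), and gene-level counts show neither protein nor isoforms. BCL2L1 counts likewise join its long survival form and its short pro-apoptotic form.

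The libraries held 17635438 to 19368343 counts each. Levels are given as CPM, the reads of a gene relative to the TMM-scaled total of its library, and fold changes come from the quasi-likelihood test of edgeR, its p-values adjusted by Benjamini-Hochberg over all 14281 genes (FDR). A gene is called a DEG at an FDR under 0.05 with a log2 fold change (logFC) over 1 in size. In bulk RNA, fewer cells of one kind and less RNA per cell cannot be told apart. The 8 plasma cell markers all passed the filter and summed to 4385 to 6247 CPM, while the 3 B cell and 3 myeloid markers stayed under 1 CPM on average in all 6 groups. The glucocorticoid receptor gene NR3C1, which separates the lines, was at 13.8 to 22.3 CPM in 8 of the 9 MM1R libraries and at 89.9 to 392 CPM in MM1S. The exception was MM1R Fer-1 + RSL3 at passage 6 with 50.2 CPM. Over 10 genes at least 8-fold higher in MM1S, this library stood at 48.5% of the MM1S level, against -0.741% to 2.80% in the other MM1R libraries, so the main test results of that group are also given without it. Of the 2 T cell markers, CD3E was at 3.26 to 11.5 CPM over the 18 libraries and CD3D at 0.057 CPM or less. COL1A1, a fibroblast marker, was at 19.5 CPM in MM1S RSL3 at passage 16 and at 0.452 to 3.93 CPM in the other 17 libraries. COL1A2, the other fibroblast marker, read 0.0657 CPM in that library and 0 CPM in the other 17. The part of COL1A1 in the results of that library was not tested.

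The promoters of the 3 genes that moved most are shown first, because their levels with Fer-1 stood differently to those of untreated cells. Each line gives the 250 bases before the RefSeq start in GRCh38.p14, in the gene's direction. Capitals mark matches, on either strand, to the AP-1 site TGANTCA, the cAMP response element TGACGTCA or its shorter part CGTCA, the C/EBP-ATF response element TGATGNAA, the E-box CACGTG, the FOXO site TGTTTAC, the CCAAT box and the heat shock element core GAANNTTC.
BBC3 (chr19:47232668-47232917, minus strand): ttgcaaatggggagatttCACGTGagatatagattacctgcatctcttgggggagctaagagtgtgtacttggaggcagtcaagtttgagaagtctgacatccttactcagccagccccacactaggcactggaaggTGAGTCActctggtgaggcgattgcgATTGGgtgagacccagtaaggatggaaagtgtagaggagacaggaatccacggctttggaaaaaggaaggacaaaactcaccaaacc
PMAIP1 (chr18:59899746-59899995, plus strand): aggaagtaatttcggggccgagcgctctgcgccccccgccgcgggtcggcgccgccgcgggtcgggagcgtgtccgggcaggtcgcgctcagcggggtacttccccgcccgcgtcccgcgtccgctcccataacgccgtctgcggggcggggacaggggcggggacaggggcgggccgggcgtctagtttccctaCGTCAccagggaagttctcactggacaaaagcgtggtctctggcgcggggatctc
BCL2L11 (chr2:111120664-111120913, plus strand): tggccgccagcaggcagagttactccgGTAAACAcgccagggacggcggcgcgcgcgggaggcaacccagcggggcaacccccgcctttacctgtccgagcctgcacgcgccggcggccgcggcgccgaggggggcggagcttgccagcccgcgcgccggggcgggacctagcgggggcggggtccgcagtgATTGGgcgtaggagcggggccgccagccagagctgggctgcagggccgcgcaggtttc

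The BBC3 window held an AP-1 match (TGAGTCA) 113 bases before the start, an E-box 232 bases before it and a reversed CCAAT box. Of 35116 windows of the same length, 6.57% held an AP-1 match, 6.34% an E-box and 32% a CCAAT box. The PMAIP1 window held the cAMP response element part CGTCA 55 bases before the start, a word present in 21.2% of all windows and also contained in the full element. The BCL2L11 window held the FOXO word in reverse (GTAAACA) 223 bases before the start, found in 2.98% of windows, and a reversed CCAAT box. The share of G and C was 49.2% in the BBC3 window, against 72.8% and 76.8% in those of PMAIP1 and BCL2L11. These matches describe letters in a short window and show no binding. Among the 8 of 10 genes with a window in the RefSeq table, BAX was the one with 4 E-boxes.

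In hg19, the build of the count tables, the 3 genes lie on chromosomes 19 (BBC3, 47724079-47736023), 18 (PMAIP1, 57567228-57571537) and 2 (BCL2L11, 111876955-111926021). Levels of different genes were compared per kb of annotated exon in the untreated cells. On this scale MCL1 stood at 93.6 ± 16.3 CPM per kb in MM1R and 90.4 ± 6.91 in MM1S (mean ± SD, n = 3 each), and BCL2L1 at 85.4 ± 7.0 and 86.9 ± 2.35. These neighbours overlapped within their SD in both lines. BMF (37.7 ± 6.45 and 28.3 ± 4.25), BAX (29.8 ± 5.40 and 28.3 ± 3.26) and BCL2L11 (26.5 ± 6.55 and 32.0 ± 3.85) formed the next tier, and their order also lay within the SD. BID followed at 12.7 ± 1.25 and 12.8 ± 0.219 CPM per kb, then BCL2 at 7.44 ± 2.56 and 9.20 ± 0.409. BBC3 (4.88 ± 1.06 and 4.17 ± 0.943) and PMAIP1 (3.58 ± 0.440 and 8.46 ± 4.0) were low before treatment, and BIK was lowest at 1.03 ± 0.151 and 0.725 ± 0.467. The exon lengths join all annotated transcripts, so the order is approximate.

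**Figure D1:**
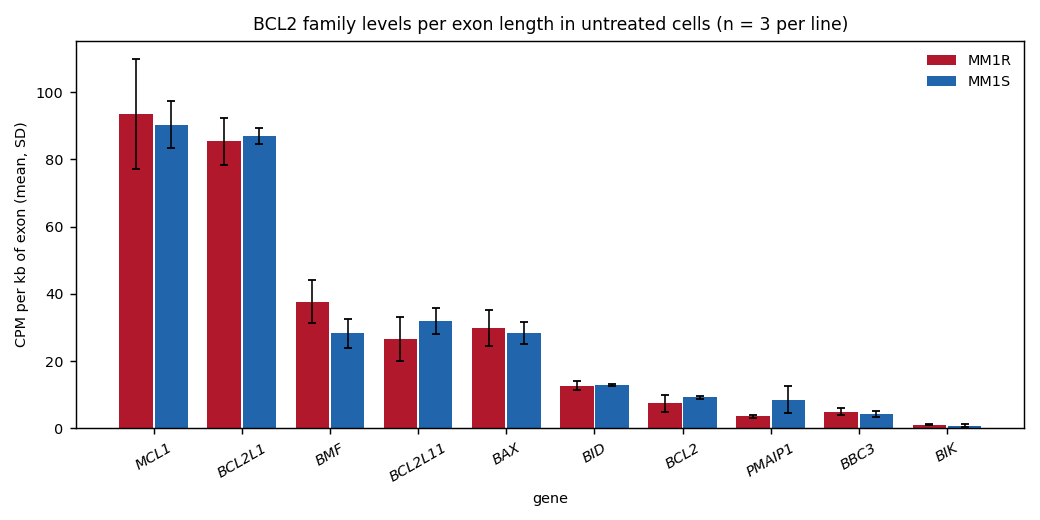
Mean CPM per kb of annotated exon of the 10 genes in untreated MM1R (red) and MM1S (blue) cells; error bars are the SD of 3 libraries. MCL1 and BCL2L1 stand above the other 8 genes in both lines, and BBC3 and BIK in both lines and PMAIP1 in MM1R are at the low end.

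Before treatment the lines differed in 1 of the 10 genes. PMAIP1 read 8.94, 7.24 and 7.30 CPM in untreated MM1R and 11.1, 28.2 and 16.2 CPM in untreated MM1S, and the groups did not overlap. Its level was lower in MM1R by a logFC of -1.24 ± 0.37 (SE, FDR = 0.0417), at a background of 4.64% of tested genes called between the untreated lines. The call was lost in 9 of 18 fits that each left out 1 library, with FDRs of 0.0504 to 0.256. The largest drop came without untreated MM1S passage 22, at a logFC of -0.79. The other libraries were the 3 untreated MM1R ones, untreated MM1S at passage 23, MM1R RSL3 at passage 4, MM1R Fer-1 + RSL3 at passage 7, and MM1S Fer-1 + RSL3 at passages 22 and 23. BMF was at 184 to 246 CPM in untreated MM1R and at 127 to 169 CPM in untreated MM1S, without overlap but not called (logFC 0.41, FDR = 0.194). The share of all tested genes without overlap between the untreated lines is not reported here, so these separations are description only. The remaining 8 genes had FDRs of 0.359 to 0.965 between the lines.

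RSL3 raised a subset of BH3-only genes, while the survival genes and BAX were not called in either line. In MM1R 3 of 10 genes were DEGs (BBC3, PMAIP1 and BCL2L11, all higher), where 1.2% of tested genes were called. In MM1S 2 of 10 were DEGs by edgeR (BBC3 and PMAIP1, both higher), against 1.61% of tested genes. The median logFC of the 10 was 0.50 in MM1R and 0.54 in MM1S, beside 0.00023 and 0.0022 over all genes tested. In MM1R the RSL3 libraries of 3 genes lay wholly above the untreated ones (13.5% of all tested) and those of 1, BCL2L1, wholly below (12.3%). In MM1S the corresponding counts were 5 and 0, against 12.6% and 12.3%.

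BBC3 encodes PUMA, a stress-induced protein that binds all main survival proteins. In MM1R it went from 19.4, 14.2 and 13.0 CPM untreated to 89.0, 22.9 and 75.0 CPM with RSL3 at passages 4, 6 and 7. Every RSL3 library was above every untreated one, with passage 6 close to them. The rise was 4.0-fold (logFC 2.00 ± 0.47, FDR = 0.0288). In MM1S it went from 11.1, 16.7 and 12.0 CPM to 90.8, 35.9 and 21.1 CPM at passages 16, 22 and 23. Passage 16 was highest and passage 23 lowest, and the groups again did not overlap (logFC 1.89 ± 0.47, FDR = 0.0369). The call in MM1R was lost without any one untreated MM1R library or without RSL3 passage 4 or 7 (FDR 0.0720 to 0.138). In MM1S it was lost without any one untreated MM1S library, RSL3 passage 16, Fer-1 + RSL3 passage 22 or untreated MM1R passage 6 (FDR 0.0509 to 0.230), the logFC falling to 1.10 without RSL3 passage 16.

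PMAIP1 encodes NOXA, the BH3-only partner of MCL1. In MM1R it went from 8.94, 7.24 and 7.30 CPM to 30.5, 18.6 and 46.0 CPM, a rise of 4.05-fold in which the lowest RSL3 library, passage 6, was still above all untreated ones (logFC 2.02 ± 0.37, FDR = 0.00931). This call held in all 18 fits that left out 1 library, the highest FDR being 0.0479. In MM1S it went from 11.1, 28.2 and 16.2 CPM to 90.4, 39.0 and 38.1 CPM. The groups did not overlap, and the logFC was 1.59 ± 0.36 (FDR = 0.0222). That call was lost without untreated MM1S passage 16 or 23 or RSL3 passage 16, with FDRs of 0.0904 to 0.123 and a lowest logFC of 1.07.

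BCL2L11 encodes BIM, a potent direct activator of BAX. It was already well expressed, at 228, 167 and 142 CPM in untreated MM1R, and reached 777, 277 and 782 CPM with RSL3. Passages 4 and 7 stood far above the untreated cells and passage 6 just above them (logFC 1.78 ± 0.44, FDR = 0.0370). In MM1S it went from 246, 201 and 201 CPM to 1216, 332 and 295 CPM, again without overlap and again with one passage, 16, far above the others. The logFC of 1.51 ± 0.44 was not called (FDR = 0.0630, 95% interval 0.58 to 2.43). DESeq2 called it there (logFC 1.50, FDR = 0.0357), as did the fit with passage as a block, at a logFC of 1.28 (FDR = 0.0416), and without RSL3 passage 16 the logFC was 0.54. The MM1R call was lost without any one untreated MM1R library or RSL3 passage 4 or 7, and also without untreated or Fer-1 + RSL3 MM1S passages 22 or 23, at FDRs of 0.0507 to 0.147. The long noncoding gene MIR4435-2HG overlaps BCL2L11 on the other strand, and since it is not stated whether counting used strand, reads in the shared stretch cannot be assigned with certainty.

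BMF and BIK are BH3-only genes as well, linked to cytoskeletal and endoplasmic reticulum stress. BMF had means of 205 CPM untreated and 269 CPM with RSL3 in MM1R (logFC 0.39, FDR = 0.302), and of 154 and 157 CPM in MM1S (logFC 0.03, FDR = 0.960). BIK stayed under 3 CPM except in MM1S RSL3 at passage 16, where it read 4.60 CPM. Its logFC was 0.74 in MM1R and 1.46 in MM1S (FDR 0.659 and 0.303), with intervals of -0.80 to 2.27 and -0.12 to 3.03 that leave sizeable changes in either line undetermined. Without RSL3 passage 16, the value in MM1S was -0.16. BID, which links death receptors to mitochondria, had logFCs of -0.08 in MM1R (95% interval -0.32 to 0.17) and 0.13 in MM1S (-0.12 to 0.37).

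Among the survival genes, MCL1 had the largest logFC averaged over the lines and in MM1S, and BCL2 in MM1R. MCL1 read 670, 606 and 471 CPM in untreated MM1R and 914, 666 and 855 CPM with RSL3, with passages 4 and 7 above all untreated libraries (logFC 0.48, FDR = 0.486). In MM1S it went from 573, 599 and 515 CPM to 1892, 609 and 516 CPM, so that passage 16 alone stood apart and the groups overlapped. Its logFC of 0.84 (FDR = 0.176) was 0.01 without RSL3 passage 16, whereas without RSL3 passage 23 it was 1.15 and called (FDR = 0.0311). MCL1 overlaps ADAMTSL4 and other annotated genes at its ends, with the same limit on strand.

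BCL2 was higher with RSL3 in 6 of 6 passages, with means of 93.9 and 135 CPM in MM1R and 116 and 136 CPM in MM1S. The logFCs were 0.52 (FDR = 0.152) and 0.23 (FDR = 0.552), and neither was called. With passage as a block the BCL2 values were 0.56 ± 0.12 in MM1R (FDR = 0.0100, under the fold limit) and 0.23 in MM1S (FDR = 0.207). BCL2L1 was lower with RSL3 in 6 of 6 passages, with differences of -0.57 to -0.016 on the log2 scale. Its means went from 358 to 316 CPM in MM1R and from 365 to 320 CPM in MM1S (logFC -0.18 and -0.19, FDR 0.515 and 0.475). BAX, the pore-forming effector, had logFCs of -0.30 in MM1R (95% interval -0.64 to 0.03) and -0.03 in MM1S (-0.37 to 0.31). With passage as a block the BAX values were -0.30 (FDR = 0.0331, under the fold limit) and -0.039 (FDR = 0.791).

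**Figure D2:**
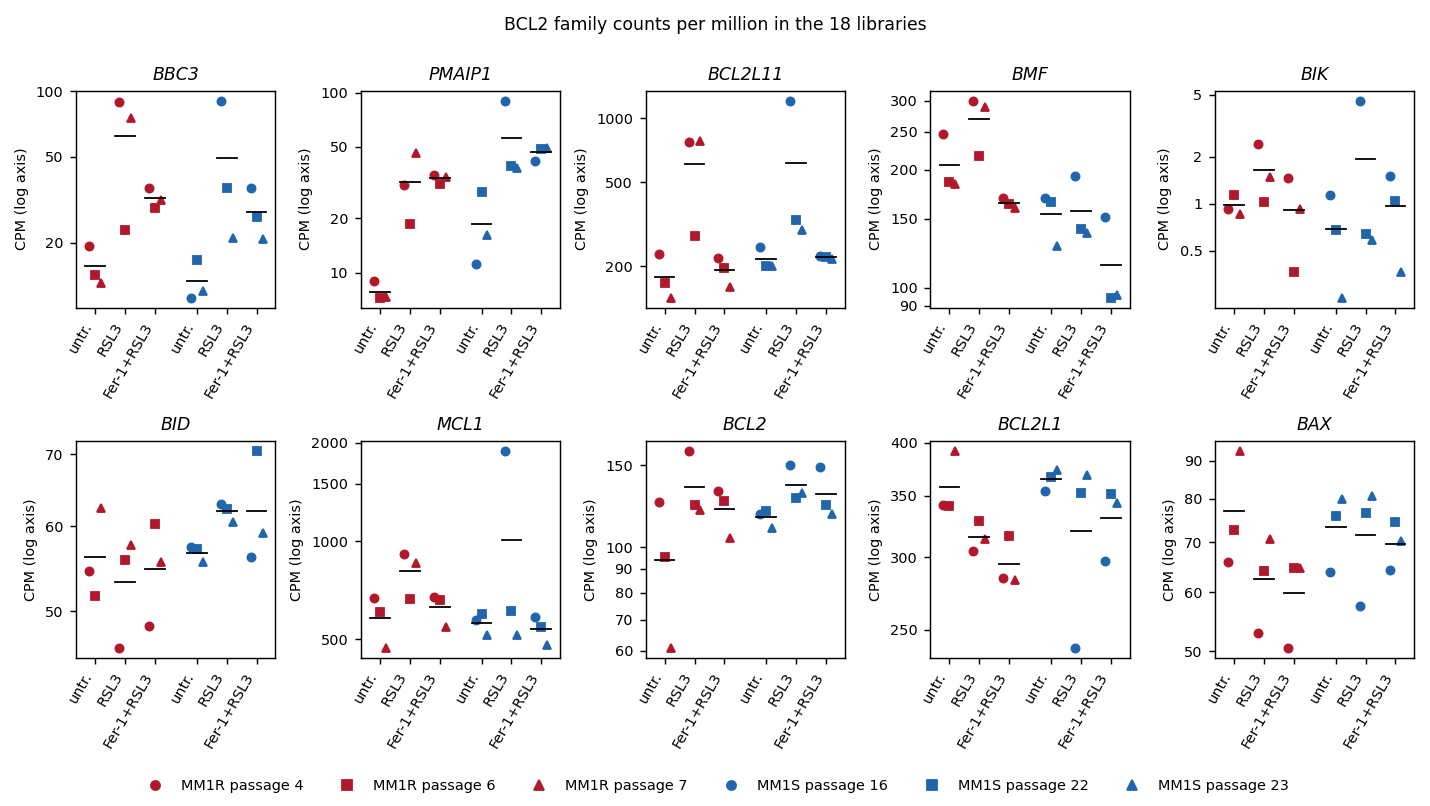
CPM on a log axis for each gene in the 18 libraries, MM1R in red and MM1S in blue, with one symbol per passage and a bar at the mean of 3 libraries. BBC3, PMAIP1 and BCL2L11 lie above untreated cells in all 6 RSL3 libraries, and the RSL3 library of passage 16 is the highest MM1S value of BBC3, PMAIP1, BCL2L11, BMF, BIK and MCL1.

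The level reached with RSL3 differed between passages, and several genes shared the lowest passage of a line. In MM1R the passage 6 RSL3 library was the lowest of the 3 for BBC3, PMAIP1, BCL2L11, BMF, BIK and MCL1. The highest was passage 4 for BBC3, BMF, BIK and MCL1 and passage 7 for PMAIP1 and BCL2L11. In MM1S the passage 23 RSL3 library was the lowest and the passage 16 library the highest for the same 6 genes. Against the untreated library of its own passage, BCL2L11 differed by 1.77, 0.73 and 2.46 on the log2 scale at MM1R passages 4, 6 and 7, and by 2.31, 0.72 and 0.56 at MM1S passages 16, 22 and 23. BBC3 differed by 2.19, 0.68 and 2.51 and by 3.01, 1.10 and 0.81 in the same order. PMAIP1 differed by 1.76, 1.35 and 2.64 and by 3.01, 0.47 and 1.23, its value at MM1S passage 22 starting from the highest untreated level. On this measure passage 22, not passage 23, had the lowest value in MM1S for PMAIP1, BMF (0.18, -0.23 and 0.12) and BIK (1.92, -0.075 and 0.95). BCL2L1 mirrored the order of the RSL3 levels in MM1S, being lowest (239 CPM) at passage 16. As a description over the 18 libraries, which share these passages and treatments, log2 CPM of BCL2L11 had a Pearson r of 0.86 with MCL1 and 0.82 with BBC3, and BCL2L1 had an r of -0.77 with MCL1 and -0.76 with BBC3.

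Averaged over both lines, BBC3 (logFC 1.94 ± 0.33, FDR = 0.00115), PMAIP1 (1.80 ± 0.26, FDR = 0.000325) and BCL2L11 (1.64 ± 0.31, FDR = 0.00232) were called, 3 of 10 against 3.24% of tested genes. All 3 stayed called in each of the 18 fits without 1 library. MCL1 had an averaged logFC of 0.66 (FDR = 0.0673) and BCL2 one of 0.38 (FDR = 0.0703). With passage as a block 4 more genes had an FDR under 0.05 without reaching the fold limit, namely MCL1 (FDR = 0.0430), BCL2 (FDR = 0.00387), BIK (logFC 0.97, FDR = 0.0323) and, in the lower direction, BAX (logFC -0.17, FDR = 0.0443). The share of all tested genes under this FDR with the block is not reported here, so this count is not a result about the family.

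The response to RSL3 was also compared directly between glucocorticoid-resistant and glucocorticoid-sensitive cells. None of the 10 genes was called by edgeR for a difference in response (0% of tested genes were), none had an unadjusted p under 0.05 (1.55% of tested genes did), and DESeq2 and limma called none either. The differences, MM1R minus MM1S, were 0.11 for BBC3 (95% interval -1.26 to 1.49), 0.43 for PMAIP1 (-0.64 to 1.49) and 0.27 for BCL2L11 (-1.01 to 1.55). Intervals of this width hold differences of over 2-fold in either direction for BBC3 and BCL2L11.

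**Figure D3:**
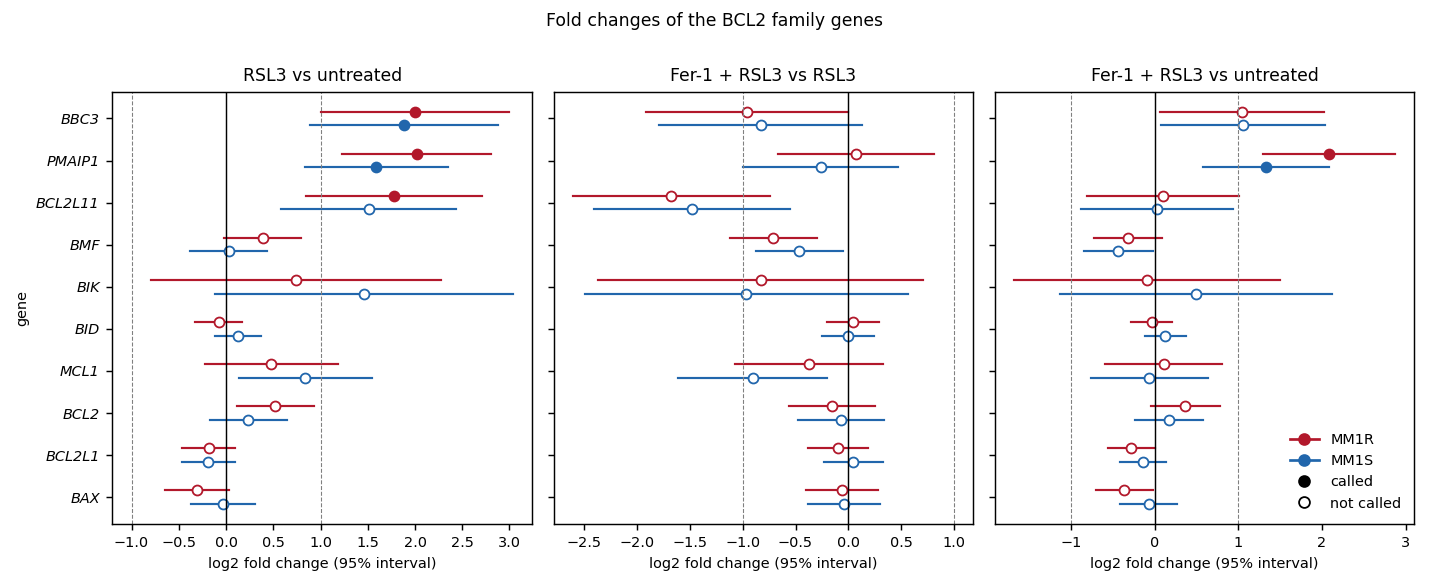
logFC (points) with 95% intervals (lines) of the 10 genes for RSL3 against untreated, Fer-1 + RSL3 against RSL3, and Fer-1 + RSL3 against untreated; filled points were called, and dashed lines mark a logFC of 1 in size. PMAIP1 is filled in the first and last panels in both lines, while BCL2L11 returns to a logFC of 0.10 and 0.03 in the last.

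The Fer-1 groups address how much of each response is seen when lipid peroxidation is inhibited. No gene of the 10 was called by edgeR between Fer-1 + RSL3 and RSL3 in MM1R or in MM1S, where 0% of tested genes were called in each line. At an unadjusted p under 0.05 there were 2 of 10 in MM1R (6.17% of tested genes) and 3 of 10 in MM1S (5.75%), and DESeq2 and limma called none in either line. Averaged over the lines 0 of 10 were called by edgeR (against 0.056% of tested genes) or by limma, DESeq2 called 1 (BCL2L11), and 4 of 10 had an unadjusted p under 0.05 (12.8% of tested genes). The genes are grouped here by where their levels with Fer-1 stood against untreated cells, and differences between genes were not tested. The share of all tested genes whose Fer-1 + RSL3 libraries lay wholly above or below another group is not reported here. Such separations are therefore given as description only.

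BCL2L11 was near its untreated level with Fer-1. It read 219, 196 and 160 CPM in MM1R and 224, 222 and 216 CPM in MM1S with Fer-1 + RSL3, below every RSL3 library of its line and within 0.24 on the log2 scale of the untreated library of the same passage. It was lower than with RSL3 alone in 6 of 6 passages, with differences of -2.44 to -0.45 on the log2 scale. The logFC against RSL3 was -1.68 in MM1R (95% interval -2.61 to -0.75, FDR = 0.444) and -1.48 in MM1S (-2.40 to -0.55, FDR = 0.783). Averaged over the lines it was -1.58 ± 0.31 (FDR = 0.0545), and with passage as a block -1.41 (FDR = 0.0250), which is called and where 0.371% of tested genes were. DESeq2 called it as well (logFC -1.58, FDR = 0.00154). Without the MM1R Fer-1 + RSL3 library of passage 6, edgeR gave an averaged logFC of -1.59 (FDR = 0.121) and one of -1.69 in MM1R (FDR = 1). It was likewise called in 4 fits that left out MM1R RSL3 passage 6 or MM1S RSL3 passage 16, 22 or 23 (FDR 0.0128 to 0.0319). Of the rise in mean CPM with RSL3, 2.96% was present with Fer-1 in MM1R (2.41% without the passage 6 library that stood apart) and 1.10% in MM1S. The MM1S share rests on a mean to which RSL3 passage 16 gave 1216 CPM. At MM1S passages 22 and 23 BCL2L11 read 201 and 201 CPM untreated, 332 and 295 CPM with RSL3, and 222 and 216 CPM with Fer-1 + RSL3.

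MCL1 and BMF had the same direction. MCL1 was lower with Fer-1 + RSL3 than with RSL3 in 6 of 6 passages, with differences from -0.0073 at MM1R passage 6 to -1.69 at MM1S passage 16, and its averaged logFC was -0.64 (FDR = 0.273, and 0.398 without MM1R Fer-1 + RSL3 passage 6). Without MM1S RSL3 passage 16 that average was -0.23 (FDR = 0.518). BMF read 169, 164 and 160 CPM in MM1R and 152, 94.3 and 95.8 CPM in MM1S with Fer-1. It was lower than with RSL3 alone in 6 of 6 passages and lower than untreated in 6 of 6. Its averaged logFC against RSL3 was -0.59 ± 0.14 (FDR = 0.0880, 0.00878 with passage as a block and 0.196 without MM1R Fer-1 + RSL3 passage 6, under the fold limit in each). Against untreated cells the logFC of BMF was -0.32 in MM1R (FDR = 0.320, and 0.469 without passage 6) and -0.44 in MM1S (FDR = 0.231). With passage as a block these values were -0.31 (FDR = 0.0825) and -0.46 (FDR = 0.0236), under the fold limit.

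PMAIP1 stayed high. With Fer-1 + RSL3 it read 34.9, 31.2 and 33.9 CPM in MM1R and 41.8, 48.7 and 48.9 CPM in MM1S. These 6 libraries varied less than the RSL3 libraries (CV of 5.81% against 43.3% in MM1R and 8.65% against 53.6% in MM1S), and all were above the untreated libraries of their line. Against RSL3 alone the averaged logFC was -0.10 (95% interval -0.61 to 0.42, FDR = 0.913), and PMAIP1 was higher with Fer-1 in 4 of 6 passages. Against untreated cells it was a DEG in both lines, at a logFC of 2.09 ± 0.37 in MM1R (FDR = 0.00328, where 2.16% of tested genes were called) and 1.33 ± 0.36 in MM1S (FDR = 0.0418, where 1.37% were). It was the 1 member called in each. Without MM1R Fer-1 + RSL3 passage 6 the MM1R logFC was 2.13 (FDR = 0.0097), the averaged logFC against RSL3 was -0.072 (FDR = 0.960), and the MM1S call was lost (FDR = 0.0523). The MM1R call held in all 18 fits without 1 library. In MM1S it was lost in 12 of 18, at FDRs of 0.0509 to 0.164 and logFCs of 1.07 to 1.40, namely without any one untreated or Fer-1 + RSL3 library of MM1R, MM1R RSL3 passage 4, untreated MM1S passage 16 or 23, or any one MM1S Fer-1 + RSL3 library.

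BBC3 lay between these patterns. With Fer-1 + RSL3 it read 35.6, 29.0 and 31.6 CPM in MM1R and 35.7, 26.2 and 20.9 CPM in MM1S, above every untreated library of its line. It was lower than with RSL3 alone in 5 of 6 passages, the exception being MM1R passage 6 with a difference of 0.34. In MM1S the differences were -1.34, -0.45 and -0.014 on the log2 scale at passages 16, 22 and 23. The MM1S logFC of BBC3 against RSL3 was -0.83, and it was -0.044 without RSL3 passage 16. The averaged logFC against RSL3 was -0.89 (95% interval -1.57 to -0.22, FDR = 0.262, and 0.421 without MM1R Fer-1 + RSL3 passage 6). Against untreated cells it was 1.04 in MM1R (FDR = 0.176) and 1.06 in MM1S (FDR = 0.227), and neither was called. Without passage 6 the MM1R value was 1.11 (FDR = 0.257). Fitted on the compared libraries alone, BBC3 was called against untreated cells in both lines (FDR 0.0045 in MM1R and 0.0285 in MM1S), and it was also called in both without a filter on low counts. Without that filter its SE in MM1R was 0.18, against 0.46 in the main fit. With passage as a block BBC3 was called in neither line (FDR 0.0610 in MM1R and 0.106 in MM1S). Of its rise in mean CPM, 35.3% was present with Fer-1 in MM1R (38.6% without passage 6) and 39.9% in MM1S. The corresponding shares for PMAIP1 were 107% (111% without passage 6) and 75.0%. These shares rest on means, which the passages with the highest RSL3 levels weigh most. At MM1S passage 23 BBC3 read 12.0 CPM untreated, 21.1 CPM with RSL3 and 20.9 CPM with Fer-1 + RSL3. At MM1R passage 6 it read 14.2, 22.9 and 29.0 CPM in the same order.

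BCL2, whose rise with RSL3 was not called, was also above untreated with Fer-1 + RSL3 in 6 of 6 passages, by 0.044 to 0.78 on the log2 scale. Its means with Fer-1 + RSL3 were 121 CPM in MM1R and 130 CPM in MM1S, so that 66.2% (60.1% without passage 6) and 68.9% of the difference in mean CPM was present. With passage as a block its logFC against untreated was 0.41 in MM1R (FDR = 0.0255) and 0.16 in MM1S (FDR = 0.413). BCL2L1 was below untreated in 6 of 6 passages, by -0.47 to -0.061. BAX was below untreated in 5 of 6 passages and BID in 3 of 6. With passage as a block the logFC of BAX against untreated was -0.36 in MM1R (FDR = 0.0091) and -0.068 in MM1S (FDR = 0.647). BIK was above untreated in 5 of 6 passages, at 0.364 to 1.50 CPM. None of these 5 genes was called by edgeR with Fer-1 + RSL3 against RSL3 or against untreated cells in either line.

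The ratio of PMAIP1 to BCL2L11 counts, which needs no length correction when compared between libraries, differed by treatment. It was 0.0393 to 0.0514 in untreated MM1R, 0.0393 to 0.0672 with RSL3 and 0.159 to 0.213 with Fer-1 + RSL3. In MM1S it was 0.0453 to 0.140, 0.0743 to 0.129 and 0.187 to 0.227. In both lines the Fer-1 + RSL3 libraries lay above all others of the line. The ratio of BCL2L11 to BCL2L1 was instead highest with RSL3, being 0.362 to 0.695 in the 6 untreated libraries, 0.800 to 5.09 with RSL3 and 0.563 to 0.768 with Fer-1 + RSL3. These ratios were formed after the values of the single genes had been seen and are given without a test.

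**Figure D4:**
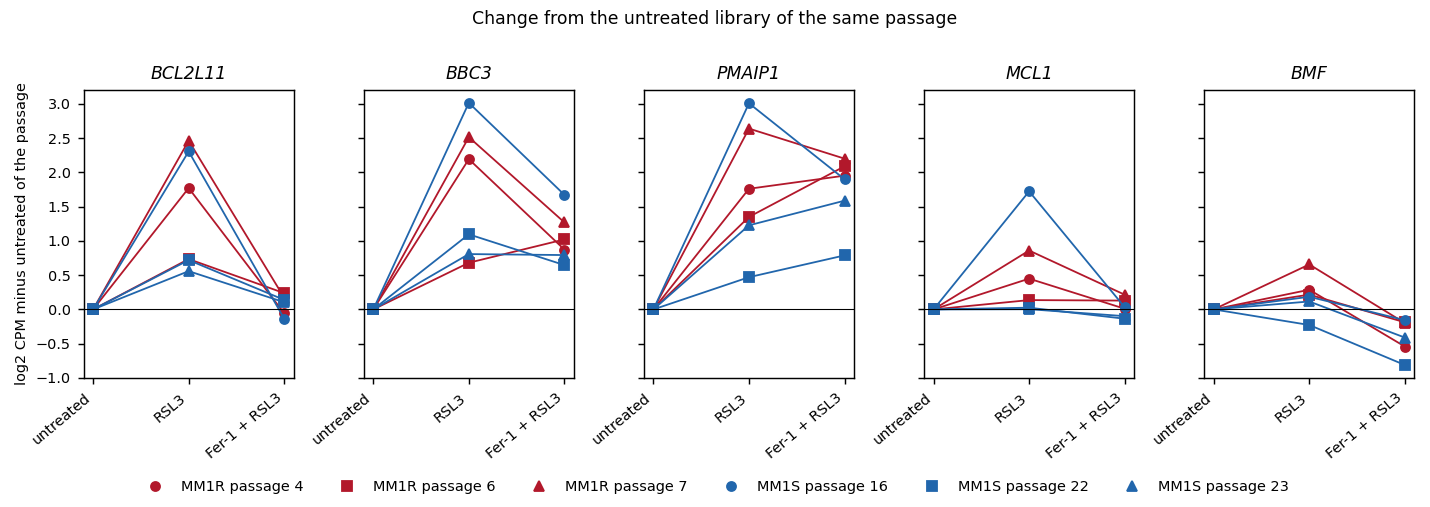
log2 CPM of 5 genes with RSL3 and with Fer-1 + RSL3, each minus the untreated library of the same passage; lines join libraries of one passage, MM1R in red and MM1S in blue. With Fer-1 + RSL3, BCL2L11 and MCL1 lie within 0.24 of the untreated value in all 6 passages. MCL1 was already that close with RSL3 at MM1R passage 6 (0.14) and MM1S passages 22 (0.025) and 23 (0.0031). BMF ends below the untreated value, BBC3 ends 0.65 to 1.67 above it and PMAIP1 ends 0.79 to 2.20 above it.

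The rest of the family held few calls. Of 13 further BCL2 family genes 9 were tested, and 1, HRK, was called with RSL3 in MM1R (logFC 2.52, FDR = 0.0266) and 0 in MM1S (there HRK had a logFC of 1.09, called with passage as a block at FDR = 0.0403). HRK is a BH3-only gene first described in neurons, and its level was at most 3.61 CPM in any library, reached in MM1S RSL3 at passage 16. In untreated cells it was lower in MM1R (0.156 to 0.290 CPM) than in MM1S (0.652 to 1.24 CPM), with a logFC of -2.17 (FDR = 0.0277). With Fer-1 + RSL3 it was called against untreated cells in MM1R (logFC 1.99, FDR = 0.0468), a call lost without passage 6 (logFC 2.02, FDR = 0.0974). BCL2L2 (BCL-w), a survival gene, was at 2.61 to 3.17 CPM in untreated MM1R and 0.157 to 0.259 CPM in untreated MM1S (logFC 3.73, FDR = 9.5e-05), while MCL1, BCL2 and BCL2L1 were not called between the untreated lines. BCL2L2 shares exons with the readthrough gene BCL2L2-PABPN1, so its counts depend on how shared reads were assigned. BAK1, the other effector, had logFCs of 0.19 and 0.49 with RSL3 (FDR 0.728 and 0.249). In MM1S it read 101 to 106 CPM untreated and 237, 103 and 98.3 CPM with RSL3, and without RSL3 passage 16 the logFC was -0.035. With Fer-1 + RSL3 it was at 114 to 125 CPM in MM1R and 78.4 to 97.1 CPM in MM1S, below every untreated and RSL3 library of its line, with an averaged logFC against RSL3 of -0.68 (FDR = 0.0937, and 0.200 without MM1R Fer-1 + RSL3 passage 6).

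Of 9 genes acting downstream of the mitochondrion, all were tested and 0 were called by edgeR with RSL3 in either line, with median logFCs of 0.08 in both. CASP9, the initiator caspase of the apoptosome, had the largest difference, at 0.41 in MM1R (FDR = 0.310) and 0.81 in MM1S (FDR = 0.0395, under the fold limit). Of 5 genes of MCL1 protein turnover 4 were tested and 0 were called by edgeR with RSL3 in either line.

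With RSL3, 1.2% of tested genes were called in MM1R and 1.61% in MM1S. Of 10 transcription factor genes linked to the family, listed with earlier results of these data known, 3 were called in both lines, all higher. These were DDIT3 (CHOP, logFC 2.56 in MM1R and 2.53 in MM1S), ATF3 (4.55 and 4.08) and JUN (4.78 and 3.83). DDIT3 followed the course of PMAIP1, at 44.1 to 69.6 CPM in MM1R and 63.9 to 75.7 CPM in MM1S with Fer-1 + RSL3, against 7.24 to 10.2 and 7.62 to 15.7 CPM untreated (logFC 2.80 and 2.69, FDR 0.00108 and 0.00137). Without MM1R Fer-1 + RSL3 passage 6 its MM1R logFC was 2.96 (FDR = 0.00209). ATF4 was called with RSL3 in neither line. Its MM1R means were 505 CPM untreated, 933 CPM with RSL3 and 889 CPM with Fer-1 + RSL3. In MM1S these means were 617, 1172 and 1043 CPM. Without MM1S RSL3 passage 16 the MM1S calls of ATF3 (logFC 2.43, FDR = 0.0733) and JUN (1.97, FDR = 0.106) with RSL3 were lost and that of DDIT3 was not. JUN was lower with Fer-1 than with RSL3 alone, by an averaged logFC of -1.68 that was not called (FDR = 0.204, and 0.348 without MM1R Fer-1 + RSL3 passage 6). With Fer-1 + RSL3 every JUN library lay above the untreated ones of its line, at means of 229 against 36.6 CPM in MM1R (logFC 2.65, FDR = 0.0423) and 340 against 56.1 CPM in MM1S (2.60, FDR = 0.0665, not called). ATF3 was called above untreated in both lines (logFC 3.07 and 3.15, FDR 0.0251 and 0.0319). Without passage 6 the MM1R call of ATF3 held (FDR = 0.0452) and that of JUN was lost (FDR = 0.0727). FOXO3 was called with RSL3 in neither line, with a logFC of 0.34 in MM1R and -0.046 in MM1S. FOXO1 was also called in neither. Its MM1R means were 12.6 CPM untreated, 15.7 CPM with RSL3 and 15.1 CPM with Fer-1 + RSL3. In MM1S they were 19.1, 29.0 and 20.7 CPM, with 39.0 CPM in RSL3 passage 16.

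The genes whose log2 CPM over the 18 libraries was most like that of BBC3 were OTUD1 (Pearson r = 0.951), CYTIP (0.949) and ZBTB10 (0.944). For PMAIP1 they were NFE2L2 (0.967), CEBPB (0.960) and FAM107B (0.949). NFE2L2 encodes NRF2, the main transcription factor of the antioxidant response, and CEBPB a partner of CHOP. The points share passages, lines and treatments, so these values describe the libraries only.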

How the data were processed

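RNA-seq libraries of 18 samples (6 groups of 3 passages) were read from the raw count table and the normalized signal table that the authors deposited. Per the labels and the study's methods, the authors checked BGISEQ-500 reads with FastQC 0.11.5, aligned them to hg19 with STAR 2.7.3a and scaled the deposited normalized signal with DESeq2. The counting tool, the annotation and the use of strand are not given in the sources used here. The deposited counts were tested in edgeR 4.0.16 (R 4.3.3) with 6 group means over all 18 libraries, TMM scaling, filterByExpr at a minimum count of 10, and 12 residual degrees of freedom. DESeq2 1.42.0 and limma 3.58.1 (on log2 of the deposited signal plus 1) were alternatives, as was passage as a replicate block (8 residual degrees of freedom). Passages named in the labels pair libraries of one line, and deviations of same-passage libraries from their group means correlated at a median r of 0.250 in MM1R and 0.416 in MM1S (9 pairs each). Totals of 17635438 to 19368343 counts limit precision for BIK, HRK and BCL2L2. Replicate libraries differed beyond counting noise. Code was tested on simulated data. All 10 members were named, list genes when called or the most changed of their list, and the 3 genes most like each member called in both lines. ATF4, FOXO1 and FOXO3 were named outside this rule. Some of the listed genes are not reported here. Members and lists were chosen with earlier results of these data known. Promoter windows came from RefSeq and exon lengths from GENCODE on hg19.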

Additional observations from a re-analysis of the deposited data

How the results depend on the processing

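All 3 calls averaged over both lines after RSL3, and the MM1R call of PMAIP1 with Fer-1 + RSL3, held under RLE and upper-quartile scaling, DESeq2, limma on the authors' normalized values, other count filters, passage as a replicate block and every fit without 1 library. With RSL3 in MM1S the count of 2 genes was 1 by limma, 0 with only the libraries compared, 3 with DESeq2 or the replicate block (BCL2L11 added), and 4 without a count filter or at an FDR under 0.5. Over all genes, 230 were called in the main fit, 186 by limma and 3 with only the libraries compared. DESeq2 called 339, the replicate block 387 and the fit without a filter 517. At an FDR under 0.5 there were 787. For Fer-1 + RSL3 against RSL3 the count of members called was 1 without a filter (in both lines and averaged), 1 at an FDR under 0.5 (MM1R and averaged), and 1 averaged with DESeq2 or the replicate block, where the gene was BCL2L11. Over all genes, 134 were called in MM1R, 151 in MM1S and 169 averaged without a filter. At an FDR under 0.5 there were 25 in MM1R and 205 averaged. Averaged, DESeq2 called 60 and the replicate block 53. For Fer-1 + RSL3 against untreated the count of members called was 2 in each line without a filter, with only the libraries compared or at an FDR under 0.5, the added gene being BBC3. Over all genes these 3 settings, in the same order, called 502, 359 and 815 in MM1R and 378, 224 and 651 in MM1S. The replicate block changed no other call among the 10 genes. It could not be fitted to the untreated lines, which share no passage. The causes were not tested.

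Without 1 library at a time the counts ran from 1 to 3 (RSL3, MM1R), 0 to 4 (RSL3, MM1S), 0 to 1 (Fer-1 + RSL3 against RSL3, MM1R and averaged), 0 to 1 (Fer-1 + RSL3 against untreated, MM1S) and 0 to 1 (untreated lines). Over all genes, the calls with RSL3 in these fits ran from 52 to 341 in MM1R and from 52 to 469 in MM1S. Small logFCs changed sign in these fits. With RSL3, BID in MM1R ran from -0.14 to 0.014, and in MM1S BMF ran from -0.14 to 0.11, BIK from -0.16 to 2.02 and BAX from -0.13 to 0.11. The difference between the lines ran from -0.25 to 0.90 for BBC3, -0.011 to 0.96 for PMAIP1 and -0.064 to 1.24 for BCL2L11. PMAIP1 with Fer-1 + RSL3 against RSL3 ran from -0.20 to 0.42 in MM1R, -0.47 to 0.27 in MM1S and -0.23 to 0.16 averaged (0.0048 by limma). Against untreated, BCL2L11 ran from -0.041 to 0.31 in MM1R and -0.017 to 0.13 in MM1S, and MCL1 from -0.023 to 0.22 and -0.13 to 0.0081.

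With 3 libraries a group and 1 RSL3 library per line far from the others, leaving out MM1S RSL3 passage 16 lowered the FDRs in MM1R (BCL2L11 against RSL3 with Fer-1 to 0.0165). BIK at 0.251 to 4.60 CPM is limited by depth.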
